A study of Mus musculus with 2 samples.

Results

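The genes described here are 8 that encode, or help to make, signals not usually ascribed to the hepatocyte, out of 31053 gene rows in the table: Npy, Uts2b, Dhh, Inhba, Stc1, Pgf, Ptgs2 and Nrk. They were chosen for a rise with the Nras transgene, as judged from their levels and from the share of hepatocytes that held them in these same cells. Their levels by transgene dose are therefore a description, and no test of that relation is given. All 8 symbols matched a row. The label of the group held only in part: 7 of the 8 genes were higher where the transgene was higher and Inhba was lower, and neither Ptgs2, which encodes an enzyme, nor Nrk, which encodes a kinase, is itself a secreted signal.

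The cells came from the livers of 3 female C57BL/6 mice, 6 to 8 weeks old when a transposon was driven into a subset of hepatocytes by hydrodynamic tail-vein injection together with a plasmid for the SB13 transposase. Under the CAGGS promoter the transposon carried mVenus, a yellow fluorescent protein, and either oncogenic NRAS(G12V), in 2 mice, or NRAS(G12V/D38A), a non-oncogenic form with a further change in the effector loop, in 1 mouse, so that every mouse carried a transgene. On day 6 mVenus-positive cells were sorted, labelled with 1 hashtag antibody per mouse, pooled and read as 3′ single-cell libraries. The deposited table gives hashtag 1 to the D38A mouse and hashtags 2 and 3 to the G12V mice, whereas in the methods of the study G12V was tagged with hashtags 1 and 2 and D38A with hashtag 3. Mice are therefore named by hashtag: hashtag 1 stands for D38A in one pairing and G12V in the other, hashtag 3 the reverse, and hashtag 2 is G12V in both. With 1 control mouse in either pairing, G12V and D38A were not compared by a test.

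Neuropeptide Y (Npy) is a neuronal peptide that acts on G protein-coupled receptors and controls appetite and vascular tone. Uts2b encodes a peptide related to urotensin II, a vasoactive hormone. Desert hedgehog (Dhh) is the hedgehog ligand known from testis and peripheral nerve, where it acts through Patched and Smoothened on the Gli transcription factors. Inhba encodes the βA subunit of the activins and inhibins, members of the TGFβ superfamily that regulate hormone release and, in liver, growth and fibrosis. Stanniocalcin 1 (Stc1) is a glycoprotein hormone that acts in calcium and phosphate handling, and placental growth factor (Pgf) is a ligand of the VEGF receptor Flt1. Ptgs2 (COX-2) makes the precursor from which prostaglandins are formed and is the inducible form of the enzyme. Nrk is a kinase of the germinal centre kinase family that is best known from the placenta.

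Values below are counts of unique molecules (UMIs). A level is given in CPM, the sum of a gene's UMIs over a set of cells scaled to 1000000 gene UMIs of those cells. Nras, which takes up reads of the construct, mVenus and the hashtags are left out of that total. Hepatocytes were barcodes in which Alb, Apoa1, Apoa2, Ttr and Fgb made up at least 1% of gene UMIs. Of 8394 such barcodes, 2236 held at least 10000 UMIs (median 39365) and are called deep, and the results rest on these unless stated. They were split by Nras CPM into a baseline bin (under 300, 1666 cells), a low bin (300 to 1000, 260 cells), an intermediate bin (1000 to 3000, 176 cells) and a high bin (3000 or more, 134 cells). mVenus, which the bins did not use, was 7.81, 79.7, 175 and 393 CPM in the same order. Hashtag 1 marked 231 deep hepatocytes, hashtag 2 1129 and hashtag 3 only 25, of which 2 were in the high bin. Another 851 had no hashtag call and entered only the pooled values. Intervals are exact 95% intervals of counting error. They do not cover the spread between cells, which was large for these genes.

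The hepatocyte label held for these cells as a graded one. The 7 matched of 8 listed hepatocyte markers outside the rule were all detected in every bin, and their sum was 10555 CPM at baseline, 6821 in the low bin, 4284 in the intermediate bin and 3180 in the high bin. The median share of the 5 rule genes was 7.51%, 5.59%, 3.77% and 3.49%. Of the other cell types, the 5 cholangiocyte markers summed to 437, 799, 1173 and 1316 CPM and the 6 stellate markers to 126, 308, 475 and 586, while the 7 Kupffer cell markers lay between 1.10 and 12.3. In the high bin 2 of the 5 cholangiocyte markers and 1 of the 6 stellate markers were at 0, and none of its 134 cells held 3 cholangiocyte markers. Median depth was 36003, 48026, 59392 and 52762 UMIs. Without the barcodes that held any 3 markers of another cell type, 7 of the 8 genes were still at least 4-fold higher in the high bin and the median log2 ratio was 3.48 instead of 3.45.

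The genes lie on different chromosomes, and 5 of the promoters are shown as the 100 bases before the start of transcription, for the genes whose levels differed most between the bins (Npy, Ptgs2, Pgf), for the gene that went the other way (Inhba) and for the only one with a match to the AP-1 motif (Uts2b). The sequences are from RefSeq (GRCm38.p6), 5′ to 3′ on the strand of the gene, with motif matches in capitals. They lie at chr6:49822610-49822709 (Npy, plus strand), chr1:150099931-150100030 (Ptgs2, plus strand), chr12:85177314-85177413 (Pgf, minus strand, the first of its 2 starts), chr13:16011751-16011850 (Inhba, plus strand) and chr16:27370240-27370339 (Uts2b, minus strand).
Npy: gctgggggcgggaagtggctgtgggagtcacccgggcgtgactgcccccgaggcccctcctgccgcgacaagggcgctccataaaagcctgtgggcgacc
Ptgs2: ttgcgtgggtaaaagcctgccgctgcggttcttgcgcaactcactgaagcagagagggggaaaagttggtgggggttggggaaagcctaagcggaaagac
Pgf: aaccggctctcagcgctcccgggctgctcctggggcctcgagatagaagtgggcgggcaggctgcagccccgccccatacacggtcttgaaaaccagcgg
Inhba: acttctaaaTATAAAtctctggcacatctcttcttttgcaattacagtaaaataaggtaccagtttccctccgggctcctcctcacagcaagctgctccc
Uts2b: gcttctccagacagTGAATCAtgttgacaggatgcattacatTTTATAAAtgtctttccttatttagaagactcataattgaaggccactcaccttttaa

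The motifs searched, on both strands of the 250 bases before each start, were TATAAA, the AP-1 motif TGANTCA, the cyclic AMP response element TGACGTCA and the ETS core CCGGAA. The promoter table held 7 of the 8 genes in 8 windows. Uts2b held TGANTCA, beginning 86 bases before its start, and TATAAA on both strands at overlapping positions (beginning 56 and 58 bases before the start). Inhba held TATAAA, beginning 91 bases before the start. The other 6 windows held none of the motifs, and no window held TGACGTCA or CCGGAA. Over all 32851 windows of the table, 12.4% held TATAAA, 6.75% TGANTCA, 1.55% TGACGTCA and 12.03% CCGGAA. The printed stretches of Npy, Pgf and Ptgs2 had 72%, 68% and 57% G and C, and those of Inhba and Uts2b 44% and 35%.

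Between the baseline and the high bin, 7 of the 8 genes were at least 4-fold higher and Inhba was at least 4-fold lower. Of 11845 genes with at least 50 UMIs in these cells, 1.55% were at least 4-fold higher and 4.14% at least 4-fold lower, but the genes were chosen on this contrast and nothing is read from their count. The median log2 ratio was 3.45 for the 8 genes and 0.01 for all genes. In the pooled levels, the 7 genes differed in where along the dose the difference lay. Ptgs2, Npy and Pgf were higher in the high than in the intermediate bin, by 5.15-fold (4.005 to 6.69), 3.25-fold (2.80 to 3.78) and 1.62-fold (1.39 to 1.88). For Dhh that ratio was 1.21 (1.02 to 1.42), and for Uts2b (1.17, 0.907 to 1.52), Stc1 (1.05, 0.806 to 1.37) and Nrk (1.03, 0.924 to 1.15) the interval held 1. These intervals do not cover the spread between mice or cells. In the hashtag 2 mouse Pgf was at 36.5 CPM in the intermediate and 31.9 in the high bin. Without the top cell of each bin, Npy in the hashtag 1 mouse was at 29.4 and 14.3. Ptgs2 was higher in the high bin in both of these mice.

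**Figure D1:**
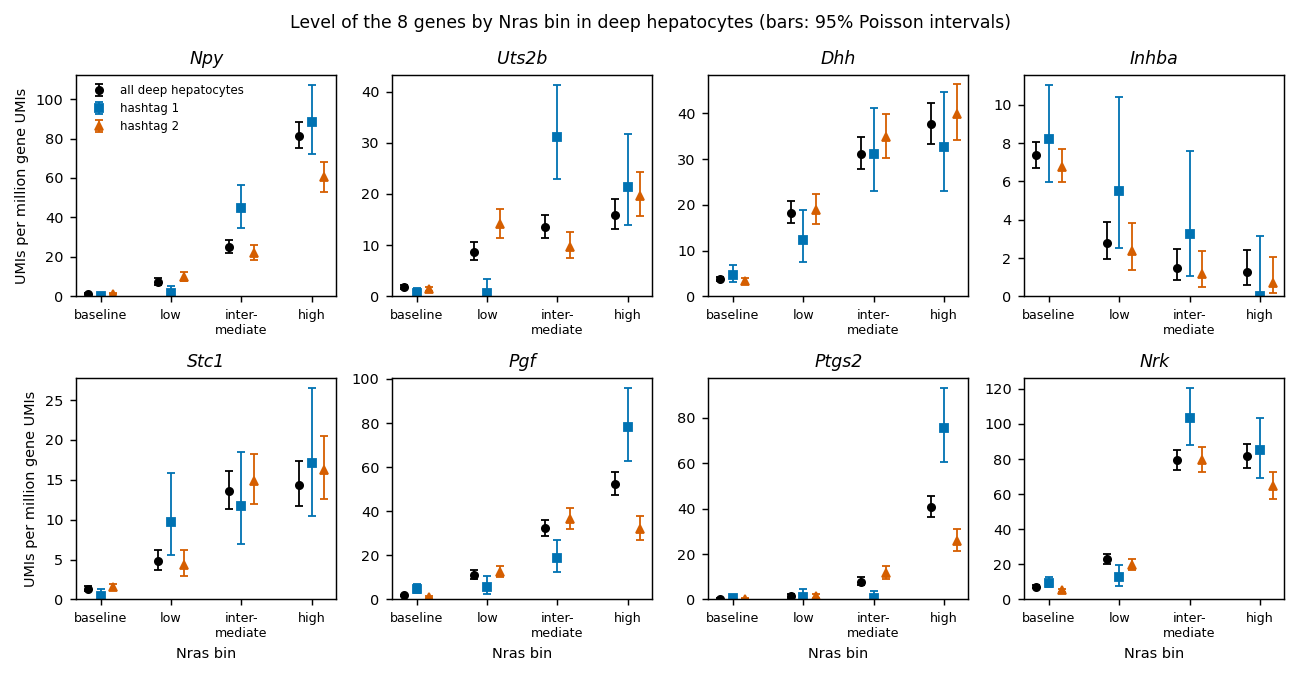
Level of each gene (CPM, linear axis with its own range in each panel) in deep hepatocytes by Nras bin, for all of them together, the hashtag 1 mouse and the hashtag 2 mouse; bars are exact 95% Poisson intervals. Npy went from 1.26 to 81.5 and Ptgs2 from 0.344 to 40.7 between the baseline and the high bin, Nrk was at 79.2 in the intermediate and 81.6 in the high bin, and Inhba went from 7.36 to 1.26.

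Among the peptide hormones, Npy was at 1.26 CPM in the baseline bin (77 UMIs), 7.4 in the low bin, 25.1 in the intermediate bin and 81.5 in the high bin (581 UMIs), a ratio of high to baseline of 64.7 (50.9 to 83.1). The gene lies at chr6:49822710-49829507. In the hashtag 1 mouse the 4 bins held 0.187, 1.83, 44.8 and 88.3 CPM, and in the hashtag 2 mouse 1.38, 9.84, 21.9 and 60.3. Both mice were lowest at baseline and highest in the high bin, but in the hashtag 1 mouse 1 cell held 87 of the 103 UMIs of the high bin. The hashtag 3 mouse held no Npy UMI in its 2 high cells and 1 UMI in its 21 baseline cells, and the cells with no hashtag call went from 1.31 to 138 CPM. Npy was carried by few cells: 21 of the 134 high cells (15.7%) held any, 1 cell of the hashtag 2 mouse held 148 of the 581 UMIs, and the top 5 cells held 77.8%. Without its top cell the high bin stood at 14.3 CPM in the hashtag 1 mouse, above its baseline bin but below its intermediate bin, which was at 29.4 without its own top cell. In the hashtag 2 mouse the same values were 26.0 for the high and 14.2 for the intermediate bin.

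Uts2b (chr16:27353322-27370239) was at 1.80, 8.72, 13.5 and 15.8 CPM from the baseline to the high bin, a ratio of 8.80 (6.71 to 11.6). In the hashtag 1 mouse the bins stood at 0.561, 0.610, 31.1 and 21.4 CPM, and in the hashtag 2 mouse at 1.36, 14.1, 9.71 and 19.7. The 2 mice shared the low baseline and the higher high bin but not the order of the bins between. In the hashtag 1 mouse 1 cell held 41 of the 48 UMIs of the intermediate bin, and without it that bin stood at 4.75. The cells with no hashtag call differed from both mice, with 2.97 CPM at baseline and 1.87 (3 UMIs in 37 cells) in the high bin. Among cells called for 1 hashtag the log2 ratio of high to baseline was 4.01, against 3.14 over all deep hepatocytes.

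Partner genes of each pathway were tested by edgeR's quasi-likelihood test on sums of UMIs per mouse and bin, with the mouse as a block and Benjamini-Hochberg adjustment over 11342 genes. The test rested on the 2 mice with at least 5 high cells, those of hashtags 1 and 2. In the deposited pairing these mice carried different constructs, and in that of the methods both carried G12V. The fit did not separate the constructs. Of all genes tested, 11.3% were called higher and 11.2% lower in the high bin at an adjusted p under 0.05. Of 137 listed partners 55 could be tested, of which 10 rose, 9 fell and 36 did not pass. In the plot of partner differences, 47 of these are drawn. Each list of partners was drawn up with earlier results of these data known. The high bin also held less of the hepatocyte genes: in the fewer cells with at least 5% of UMIs from the 5 rule genes, 8 of the 19 calls held.

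**Figure D2:**
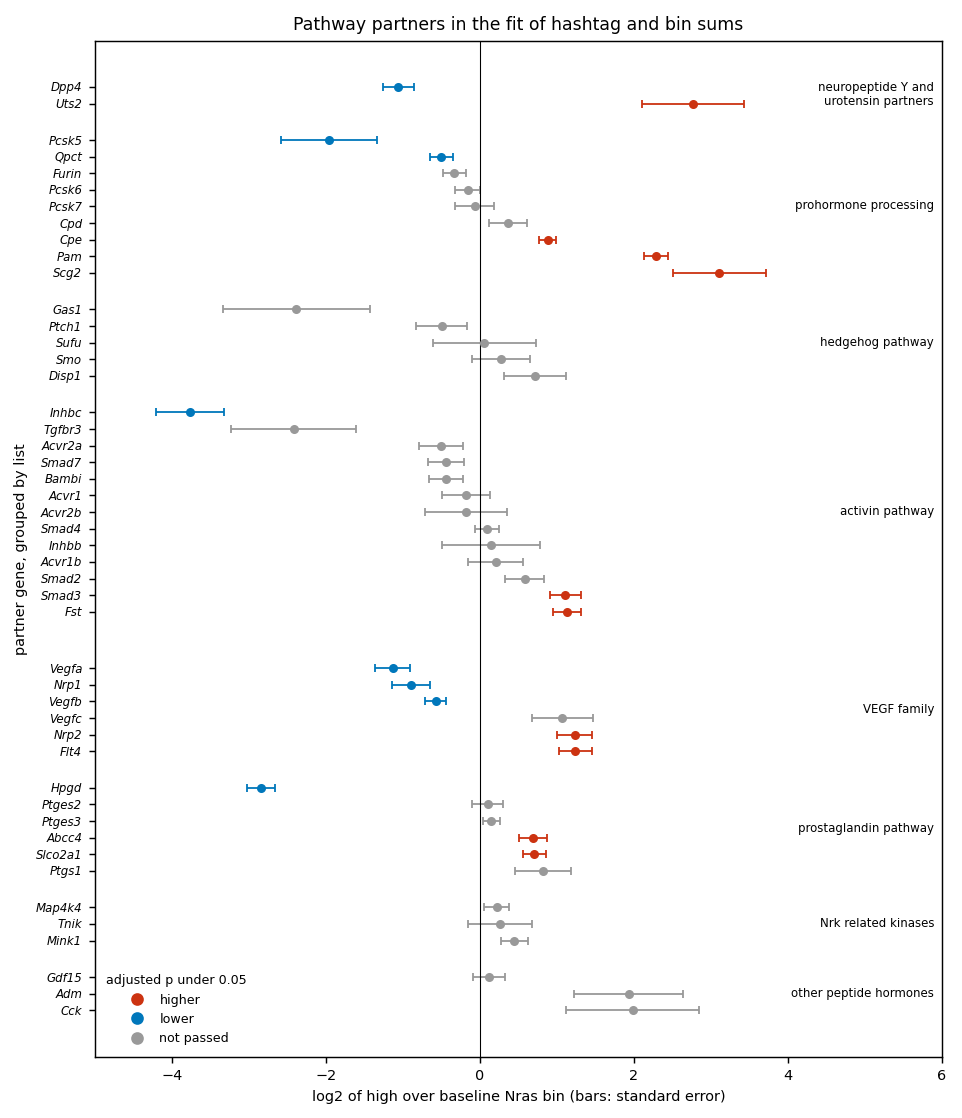
Log2 difference between the high and the baseline bin in the edgeR fit (points, with bars of 1 standard error) for the 47 tested partner genes whose standard error is under 1, by pathway list, with calls at an adjusted p under 0.05 coloured. Pam (2.28) and Uts2 (2.77) lie to the right, Hpgd (-2.85) and Inhbc (-3.77) to the left, and the tested hedgehog pathway genes shown hold no call.

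For the neuropeptide Y and urotensin list, 2 of 10 genes could be tested. Uts2, urotensin II itself, was at 0.187 and 4.29 CPM in the baseline and high bins of the hashtag 1 mouse and at 0.706 and 3.75 in those of the hashtag 2 mouse, and rose (log2 2.77, SE 0.67, adjusted p = 0.0113, edgeR). Dpp4, a surface protease that trims neuropeptide Y, went from 23.9 to 10.3 and from 17.2 to 8.68 CPM in the same mice and fell (log2 -1.06, SE 0.20, adjusted p = 0.00313, edgeR). Of the receptors in the list, Npy1r held 1 UMI in all tested sums and the others none. The Dpp4 call was lost with DESeq2 and in the cells richer in hepatocyte genes, while the Uts2 call held in all 9 alternatives that could test it.

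Peptide hormones are cut from precursors and finished by a set of processing enzymes. Of 9 tested genes of this list 3 rose, 2 fell and 4 did not pass. Pam, the enzyme that amidates the end of peptides such as neuropeptide Y, was at 26.7 and 109 CPM in the hashtag 1 mouse and at 20.02 and 109 in the hashtag 2 mouse (log2 2.28, SE 0.16, adjusted p = 2.8e-06, edgeR). Cpe, a carboxypeptidase that trims peptide ends, went from 378 to 706 and from 376 to 664 CPM (log2 0.88, SE 0.11, adjusted p = 0.000135, edgeR). Both mice moved by like amounts for these 2 enzymes, and both calls held in all 10 alternatives. Scg2, a granin of secretory granules, was scarce and rose from 0.561 to 5.14 and from 0.480 to 4.22 CPM (log2 3.11, SE 0.61, adjusted p = 0.0034, edgeR), a call lost in cells with at least 5% of UMIs from hepatocyte genes. The convertase Pcsk5 (log2 -1.96, SE 0.62, adjusted p = 0.0438) and Qpct, which closes N-terminal glutamine into a ring (log2 -0.50, SE 0.15, adjusted p = 0.033), fell in the edgeR fit, but both calls were lost with DESeq2 and without the mouse block. Pcsk1 and Pcsk2, the convertases of neurons and endocrine cells, held no UMI and were singled out after their values were seen.

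Of 41 other peptide hormones listed, 21 held a UMI and 4 could be tested, none of which passed the edgeR test at an adjusted p under 0.05. Gdf15, a stress hormone, was high in every bin, at 884 and 1162 CPM in the hashtag 1 mouse and 1226 and 1122 in the hashtag 2 mouse (log2 0.12, SE 0.20, adjusted p = 0.759, edgeR). Adm, the vasodilator adrenomedullin, went from 1.87 to 18 in the hashtag 1 mouse but from 1.38 to 1.64 in the hashtag 2 mouse, and Cck, cholecystokinin, from 0.934 to 0 in the first and from 1.92 to 10.3 in the second. Neither moved alike in both mice.

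Dhh (chr15:98891152-98898540) was at 3.75, 18.3, 31.2 and 37.6 CPM from the baseline to the high bin, a ratio of 10.03 (8.38 to 12.02). The hashtag 1 mouse had 4.67, 12.2, 31.1 and 32.6 CPM, the hashtag 2 mouse 3.36, 18.8, 34.9 and 39.9, and the cells with no hashtag call 4.17, 20.1, 22.1 and 34.3. The 2 high cells of the hashtag 3 mouse held 5 UMIs between them. Dhh was found in 88 of the 134 high cells (65.7%) at their full depth, and no cell held more than 9 of the 268 UMIs there. Part of the gene overlaps Rhebl1 on the same strand, so that reads of the shared stretch cannot be assigned by position alone. Rhebl1 was at 3.96, 9.29, 9.99 and 13.7 CPM, a smaller difference than that of Dhh.

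The hedgehog pathway genes that would receive or transmit this ligand did not pass the test in either direction. Of 16 listed, 6 were tested by edgeR and none was called at an adjusted p under 0.05. The receptor Ptch1, itself a known target of the pathway, was at 7.29 and 3.43 CPM in the baseline and high bins of the hashtag 1 mouse and 9.29 and 7.04 in the hashtag 2 mouse (log2 -0.50, SE 0.33, adjusted p = 0.341, edgeR). Smo, the signal transducer, gave a log2 difference of 0.28 (SE 0.38, adjusted p = 0.677, edgeR), and Disp1, which releases the ligand from producing cells, 0.72 (SE 0.40, adjusted p = 0.246, edgeR). Gli1, a target gene of the pathway singled out after its values were seen, held no UMI.

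Inhba (chr13:16011851-16031621) went against the label of the group. It was at 7.36 CPM at baseline (450 UMIs), 2.80 in the low bin, 1.499 in the intermediate bin and 1.26 in the high bin (9 UMIs), which is 5.83-fold lower (3.05 to 12.8). Levels in the hashtag 1 mouse were 8.22, 5.49, 3.24 and 0 CPM, with no UMI in its 23 high cells, and in the hashtag 2 mouse 6.78, 2.39, 1.15 and 0.704. The order was the same in both mice, and the cells with no hashtag call had 8.25, 2.36, 1.28 and 3.75. At baseline Inhba was spread over 306 of 1666 cells (18.4%), none with more than 7 UMIs.

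The direction for Inhba depended on the hepatocyte rule. With no rule on hepatocyte genes, the log2 ratio of high to baseline in deep barcodes was 1.66 instead of -2.54. A single barcode of the hashtag 1 mouse below the rule, with 99703 UMIs, 0.0572% of them from the 5 rule genes, and 5998 Nras CPM, held 130 Inhba UMIs, and without it the log2 ratio was -0.49. The same barcode held 177 Npy, 82 Pgf, 70 Ptgs2, 38 Stc1 and 10 Dhh UMIs.

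Of the 14 activin pathway genes tested, 2 rose, 2 fell and 10 did not pass. Inhbc and Inhbe encode the activin βC and βE subunits, which are known as hepatocyte products. Inhbc went from 10.1 to 0 CPM in the hashtag 1 mouse and from 16.8 to 1.41 in the hashtag 2 mouse, and fell (log2 -3.77, SE 0.44, adjusted p = 0.000111, edgeR). Inhbe was at 1.87 and 2.99 CPM at baseline and held no UMI in the high cells of either mouse. Against a floor of 3 counts over the 2 mice it was at least 5.15-fold lower (adjusted p = 0.0141, edgeR). Fst, follistatin, which binds and blocks activins, went from 90.6 to 261 and from 108 to 185 CPM and rose (log2 1.13, SE 0.18, adjusted p = 0.000978, edgeR), as did Smad3, a transducer of activin and TGFβ signals (log2 1.11, SE 0.20, adjusted p = 0.00207, edgeR). Smad4, the shared partner of these transducers (log2 0.10, SE 0.16), and the pseudoreceptor Bambi (log2 -0.44, SE 0.22) did not pass. The calls of Inhbc and Fst held in all 10 alternatives, and those of Inhbe and Smad3 were lost in cells with at least 5% of UMIs from hepatocyte genes.

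Stc1 (chr14:69029238-69041804) was at 1.34, 4.85, 13.6 and 14.3 CPM from the baseline to the high bin, a ratio of 10.7 (7.89 to 14.4). By mouse, the values were 0.374, 9.76, 11.7 and 17.1 CPM for hashtag 1 and 1.53, 4.36, 14.8 and 16.2 for hashtag 2. The 2 mice were close to each other in the intermediate and high bins. In the cells with no hashtag call the high bin stood lower, at 4.995 CPM (8 UMIs), after 1.26, 3.54 and 11.9. Both high cells of the hashtag 3 mouse together held 5 UMIs, all in 1 cell. Of the other calcium hormones and stanniocalcin partners, only Pthlh, parathyroid hormone-like hormone, could be tested. It had no UMI in the high cells of the hashtag 1 mouse and 2.58 CPM in those of the hashtag 2 mouse (log2 4.26, SE 1.45, adjusted p = 0.0575, edgeR, not passed), while Stc2 and Pth1r held 13 and 4 UMIs in all.

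Pgf (chr12:85166635-85177790) was at 1.87, 11.2, 32.4 and 52.3 CPM, a ratio of high to baseline of 28.0 (22.7 to 34.9). The hashtag 1 mouse had 4.67, 5.49, 18.8 and 78.0 CPM and the hashtag 2 mouse 1.04, 12.5, 36.5 and 31.9. The mice differed in shape, since Pgf was higher in the high than in the intermediate bin in the hashtag 1 mouse but not in the hashtag 2 mouse. The cells with no hashtag call, at 2.56, 11.2, 31.0 and 89.9, followed the first shape. In 1 of these cells 59 Pgf UMIs stood beside 58 Npy and 48 Ptgs2 UMIs.

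Of the 8 tested genes of the VEGF family and its receptors, 2 rose, 3 fell and 3 did not pass. The ligands Vegfa, the main angiogenic factor (27.5 to 20.6 CPM in the hashtag 1 mouse, 38.9 to 13.8 in the hashtag 2 mouse, log2 -1.13, SE 0.23, adjusted p = 0.00426, edgeR), and Vegfb (log2 -0.57, SE 0.14, adjusted p = 0.0111, edgeR) fell. The coreceptor Nrp1 also fell (log2 -0.90, SE 0.25, adjusted p = 0.023, edgeR). The receptor Flt4 went from 9.90 to 29.1 and from 9.83 to 20.4 CPM and rose (log2 1.24, SE 0.21, adjusted p = 0.00145, edgeR), and so did the coreceptor Nrp2 (11.6 to 19.7 and 10.6 to 28.8 CPM, log2 1.23, SE 0.23, adjusted p = 0.00237, edgeR). Each of these 5 calls was lost in at least 2 of 10 alternatives: those of Vegfa, Vegfb and Nrp1 with DESeq2, and those of Vegfb, Flt4, Nrp1 and Nrp2 in cells with at least 5% of UMIs from hepatocyte genes.

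Ptgs2 (chr1:150100031-150108227) was nearly absent at baseline, at 0.344 CPM (21 UMIs in 1666 cells), and stood at 1.40, 7.89 and 40.7 CPM in the next bins, a ratio of high to baseline of 118 (76.0 to 194). The hashtag 1 mouse had 0.747, 1.22, 0.649 and 75.4 CPM, and the hashtag 2 mouse 0.282, 1.41, 11.5 and 25.8. In the hashtag 1 mouse 63 of the 88 UMIs of the high bin came from 1 cell, with 14880 Nras CPM, and without it the bin stood at 22.2. The other 25 UMIs were also in 1 cell. In the hashtag 2 mouse 13 of 72 high cells held Ptgs2, and without the top one its level was 15.02 CPM. In cells with at least 5% of UMIs from hepatocyte genes the high bin held no Ptgs2 UMI. The log2 ratio of -0.057 there was set by 0.5 UMI added in its place, so it gives no direction.

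Around this enzyme, 8 genes of the prostaglandin pathway were tested, of which 2 rose, 1 fell and 5 did not pass. Hpgd, which breaks prostaglandins down, went from 189 to 17.1 CPM in the hashtag 1 mouse and from 140 to 23.0 in the hashtag 2 mouse, and fell (log2 -2.85, SE 0.18, adjusted p = 1.7e-06, edgeR). That call held in all 10 alternatives. The prostaglandin transporters Slco2a1 (59.1 to 109 and 65.7 to 96.1 CPM, log2 0.71, SE 0.15, adjusted p = 0.00534, edgeR) and Abcc4 (log2 0.69, SE 0.18, adjusted p = 0.0197, edgeR) rose. The first call was lost in cells with at least 5% of UMIs from hepatocyte genes and the second with DESeq2 and without the mouse block. The terminal synthase gene Ptges3 did not pass, at 175 and 182 CPM in the hashtag 1 mouse and 159 and 183 in the hashtag 2 mouse (log2 0.15, SE 0.11, adjusted p = 0.41, edgeR).

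Nrk (chrX:138914430-139010532) was at 7.25, 22.9, 79.2 and 81.6 CPM, a ratio of high to baseline of 11.3 (9.93 to 12.8). The hashtag 1 mouse had 9.53, 12.8, 103 and 84.9 CPM, the hashtag 2 mouse 5.196, 19.7, 79.3 and 64.7, and the cells with no hashtag call 10.5, 34.5, 64.2 and 105. In the hashtag 1 mouse the step lay between the low and the intermediate bin, while the hashtag 2 mouse also rose from the baseline to the low bin. The high bin was not above the intermediate one in either mouse. The 2 high cells of the hashtag 3 mouse held 39 Nrk UMIs, more than of any other of the 8 genes. Its relatives Map4k4 (log2 0.22, SE 0.17), Tnik (log2 0.26, SE 0.42) and Mink1 (log2 0.45, SE 0.18) were tested by edgeR and none passed, with adjusted p of 0.413, 0.763 and 0.0996.

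The share of high cells that held a UMI ranged widely between the genes. Dhh was found in 65.7% of the 134 cells, Nrk in 51.5%, Pgf in 41.0%, Stc1 in 26.1%, Uts2b in 22.4%, Ptgs2 in 20.1%, Npy in 15.7% and Inhba in 3.73%. With each cell thinned to 10000 UMIs these shares were 20.1% for Dhh, 34.3% for Nrk, 21.6% for Pgf, 12.7% for Stc1 and Npy, 11.9% for Uts2b, 10.4% for Ptgs2 and 0.746% for Inhba, so that Nrk stood above Dhh and the shares of Pgf and Dhh were close. The thinned order from Stc1 to Ptgs2 lay within the binomial intervals of its neighbours. As a measure of free RNA, 116 deep barcodes of a cluster called conventional dendritic-like gave thinned shares of 3.45% for Nrk (4 barcodes), 1.72% for Pgf (2), 0.862% for Dhh (1) and none for the other 5 genes. Baseline hepatocytes gave 3.66%, 1.98% and 2.70% for Nrk, Pgf and Dhh. Those of Nrk and Pgf were close to the share in the cluster, and that of Dhh is set against a single barcode. No detection beyond free RNA is read from these baseline shares alone. Within the baseline bin Nrk was uneven, and 1 cell held 43 of its 443 UMIs. The thinned shares of all 7 genes other than Inhba in the high bin had intervals above those of the dendritic-like cluster. As the genes were chosen for their levels and shares in these hepatocytes, that order is no separate result. Median depth was 9874 UMIs over all 252 barcodes of that cluster and 36003 in baseline hepatocytes.

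**Figure D3:**
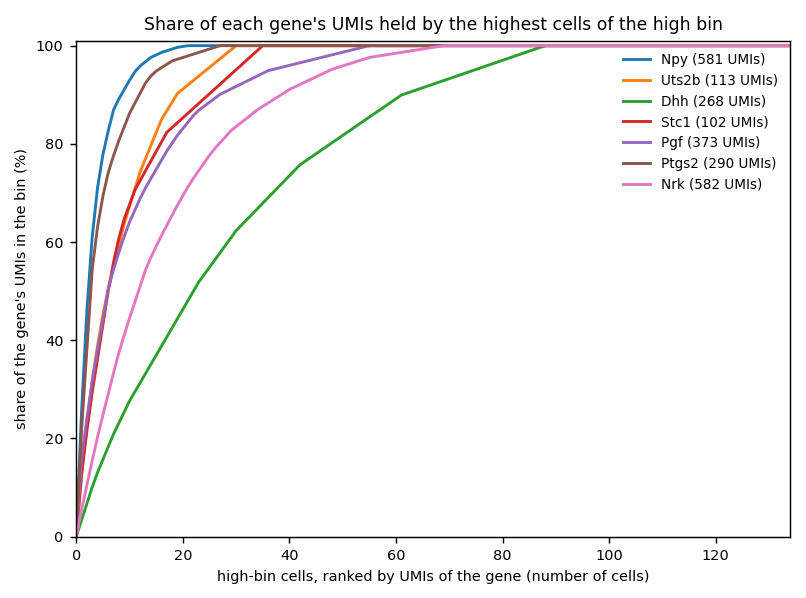
Cumulative share of each gene's UMIs in the high Nras bin (vertical axis, percent) against the number of its highest cells (horizontal axis) among 134 deep hepatocytes; Inhba, with 9 UMIs, is not drawn. The top 5 cells held 77.8% of Npy, 69.3% of Ptgs2, 45.1% of Uts2b, 44.2% of Pgf, 43.1% of Stc1, 24.7% of Nrk and 15.7% of Dhh UMIs.

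By the share of UMIs in the top 5 cells Npy and Ptgs2 were the most uneven of the 7 genes drawn, and Nrk and Dhh the least. When the high bin itself was divided at its median of 5335 Nras CPM, Npy was at 17.04 in the lower and 149 in the upper 67 cells, Ptgs2 at 21.4 and 60.7, Uts2b at 7.14 and 24.9, and Pgf at 40.9 and 64.2. The intervals of Stc1 (10.4 and 18.3) overlapped slightly. Dhh (37.9 and 37.2) and Nrk (80.5 and 82.8) did not differ beyond their intervals. These intervals cover counting error only, and 1 cell held 148 of the 519 Npy UMIs of the upper part. The thinned shares of cells with a UMI had overlapping intervals in the 2 parts for each of the 8 genes, for example 7.46% (2.47 to 16.6) and 17.9% (9.61 to 29.2) for Npy.

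Ranking the cells by mVenus, which did not define the bins but sits on the same construct as the transgene, gave the same direction for each of the 8 genes. The genes were chosen on their relation to the transgene in these cells, so this direction is no separate result. Cells with no mVenus UMI, and the rest split by mVenus level into 3 sets of 264 or 265 cells in rising order, had 1.28, 3.098, 9.21 and 55.1 CPM of Npy, 2.98, 8.04, 22.4 and 34.5 of Dhh, 5.95, 14.1, 43.8 and 74.4 of Nrk, and 7.43, 6.195, 2.58 and 1.42 of Inhba. Within the baseline bin, the 288 cells with an mVenus UMI had more Npy (2.30 against 0.978 CPM), Dhh (7.81 against 2.64), Nrk (14.0 against 5.41), Uts2b (4.52 against 1.06) and Stc1 (2.68 against 0.978) than the 1378 without, with intervals that did not overlap. For Pgf (1.76 against 1.89), Ptgs2 (0.459 against 0.312) and Inhba (6.74 against 7.53) the intervals overlapped. As pooled levels, these 5 genes were thus higher where mVenus was detected also in cells under 300 Nras CPM. The intervals cover counting error only, and the top 5 cells of the whole baseline bin held 54.5% of its Npy and 53.6% of its Uts2b UMIs. Nras, depth and the share of hepatocyte genes were not matched between the cells with and without mVenus.

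The levels also moved with the share of hepatocyte genes, which was lower in the higher bins. Among deep barcodes above the baseline bin, Pgf was at 157 CPM where the 5 rule genes made up under 1% of UMIs and at 81.4, 34.0, 6.21 and 0.195 where they made up 1 to 2%, 2 to 5%, 5 to 10% and 10% or more. Ptgs2 went from 85.0 through 46.0, 13.7 and 1.21 to 0 over the same classes, and Nrk from 71.7 and 118 through 82.5 and 12.8 to 2.34. Stc1 was the least graded, at 22.6, 13.1, 9.19, 10.9 and 8.58. The genes were chosen for their rise in these cells, so the direction within a class is a description. Within the class of 2 to 5%, cells above the baseline bin had more than baseline cells: 28.7 against 2.53 CPM for Npy, 20.01 against 4.82 for Uts2b, 36.2 against 8.92 for Dhh, 9.19 against 0.553 for Stc1, 34.0 against 4.42 for Pgf, 13.7 against 0.632 for Ptgs2 and 82.5 against 18.2 for Nrk. Inhba was lower there, at 1.39 against 3.87. At 5 to 10% the intervals of Ptgs2 overlapped (1.21 against 0.429), while those of the other genes did not and Inhba was again lower. These intervals cover counting error only. In that class 7 of the 137 cells above the baseline bin held all 208 Npy UMIs, and 148 of these were in 1 cell. At 10% or more, the intervals of Npy, Uts2b, Pgf and Ptgs2 overlapped those of the baseline cells, while Dhh (4.29 against 0.700), Nrk (2.34 against 0.661) and Stc1 (8.58 against 1.75) were higher and Inhba (3.31 against 9.53) lower. At the edge of the rule, the 12 intermediate barcodes with 0.5 to 1% of these genes held 186 Nrk, 63.7 Npy and 41.4 Pgf CPM, and no Inhba UMI.

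**Figure D4:**
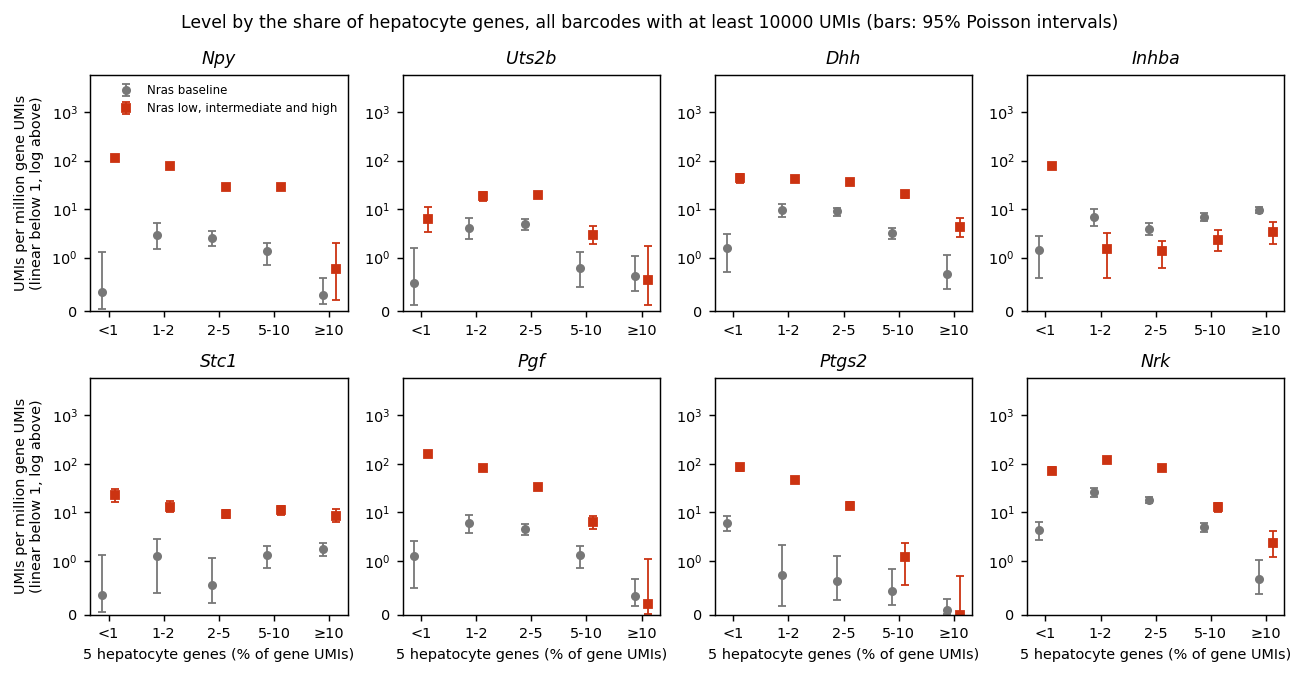
Level of each gene (CPM, axis log above 1 and linear below) in deep barcodes by the share of UMIs from the 5 hepatocyte rule genes (horizontal axis, 5 classes), for the baseline bin and for the low, intermediate and high bins together, with exact 95% Poisson intervals. In the cells above the baseline bin Pgf went by class from 157 to 0.195 and Ptgs2 from 85.0 to 0, and Stc1 stayed between 8.58 and 22.6; Inhba was at 78.1 under 1%, mostly from 1 barcode.

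More of the genes were found together in a cell in the higher bins. Only the 7 genes that were higher in the high bin were counted, without Inhba. After thinning to 10000 UMIs, 1.68% of baseline cells held at least 2 of them, against 10.4% of low, 27.8% of intermediate and 36.6% of high cells. The largest number in a cell was 5. As these genes were taken for their rise over the same bins, the direction of these shares is no separate result. In the high bin 7 of the 14 cells with Ptgs2 also held Pgf, which was found in 21.6% of all high cells, and 8 held Nrk, found in 34.3% of all. Of the 16 cells with Uts2b 7 held Pgf, and 5 of the 17 with Npy held Stc1, found in 12.7% of all. The product of the shares of the genes gives 3.03 cells for Ptgs2 with Pgf, 4.81 for Ptgs2 with Nrk, 3.46 for Uts2b with Pgf and 2.16 for Npy with Stc1. Npy and Uts2b met in 1 cell and Npy and Ptgs2 in 2, where the products are 2.03 and 1.78. The pairs named here were picked from all pairs with their counts known. Others lay near the product, such as Dhh with Pgf (5 cells, product 5.84) and Stc1 with Pgf (4 cells, product 3.68). All these counts are small and no test was made of them.

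Across the other cells of the sort, 1 unnamed cluster resembled the high hepatocytes. It held 66 barcodes with under 1% of hepatocyte rule genes, a median of 31664 UMIs and 3826 Nras CPM, and Areg, Cxcl3, Tm4sf4, Tspan8 and Clu were its leading genes. Its levels in CPM were 97.8 Npy, 39.8 Dhh, 18.6 Stc1, 133 Pgf, 73.3 Ptgs2, 73.3 Nrk, 67.5 Inhba and 5.80 Uts2b. Dhh was found in 51.5% of its barcodes. Most of its Inhba (130 of 163 UMIs), Npy (177 of 236) and Stc1 (38 of 45) came from the single barcode described above.

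In the named cell types of the liver the genes were rare, with exceptions for Ptgs2 and Inhba. Ptgs2 was at 113 CPM in 45 plasmacytoid dendritic-like barcodes (27 UMIs, 22.2% of barcodes) and at 78.5 in 37 Kupffer and macrophage-like barcodes (22 UMIs, 17 of them in 1), against 0.811 in 252 conventional dendritic-like barcodes. Inhba was at 114 CPM in 12 cholangiocyte-like barcodes (9 UMIs, in 7 of the barcodes). Dhh was at 8.93 CPM in 225 liver sinusoidal endothelial-like barcodes (7 UMIs in 7 barcodes), of which 205 carried hashtag 3. None of the 8 genes had a UMI in 80 T and NK-like barcodes, where a count of 0 allows a share of up to 3.75% of barcodes with a UMI (3 of 80). At their median of 3252 UMIs this does not limit the share of cells that express a gene.

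**Figure D5:**
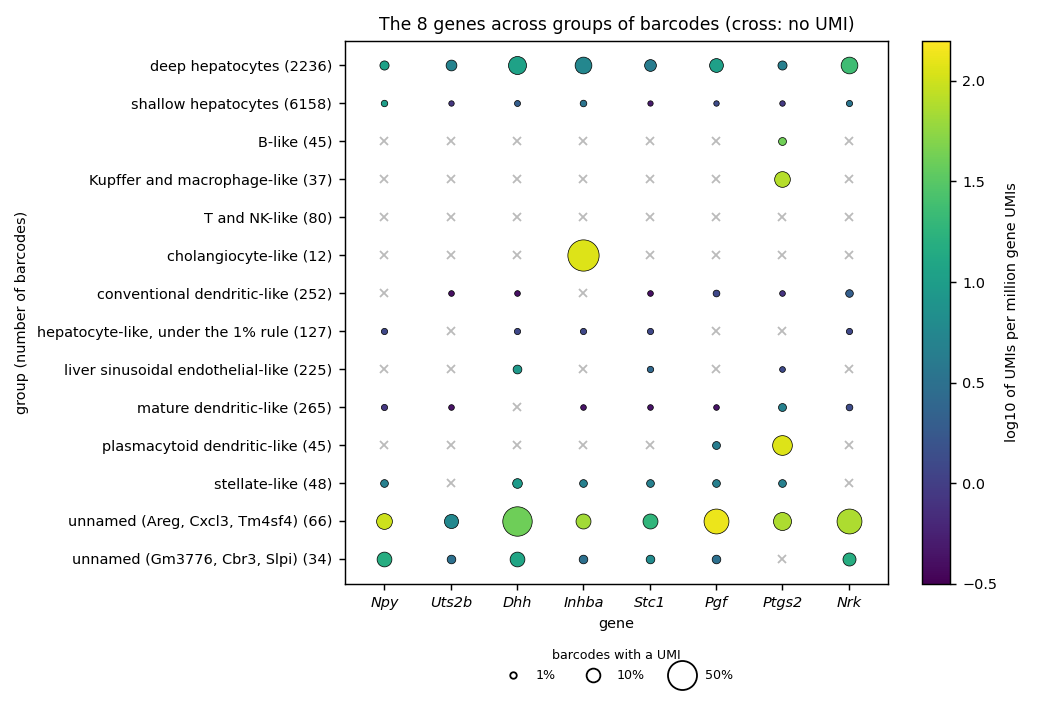
Level (colour, log10 of CPM) and share of barcodes with a UMI (size of the circle) of each gene (columns) in hepatocytes of all Nras bins together, deep and shallow, and in clusters of other barcodes (rows, with the number of barcodes). Drawn are the named cell types and the unnamed clusters of 66 and 34 barcodes, and the other unnamed clusters are left out. A cross marks no UMI. Npy (97.8 CPM), Pgf (133) and Nrk (73.3) are high in the unnamed cluster of 66 barcodes, Ptgs2 also stands out in plasmacytoid dendritic-like (113) and Kupffer and macrophage-like (78.5) barcodes, and Inhba in cholangiocyte-like barcodes (114).

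Within hepatocytes, clusters made without the 8 genes and without the construct showed the same pattern at a like median depth. A cluster led by Hmga2, Sox4 and Igfbp3, with 1167 hepatocytes at a median of 41484 UMIs, had 19.0 Npy, 8.50 Uts2b, 19.4 Dhh, 5.87 Stc1, 17.6 Pgf, 7.91 Ptgs2, 39.6 Nrk and 3.18 Inhba CPM. A hepatocyte-like cluster of 834 hepatocytes at a median of 41431 UMIs had 0.206, 0.825, 0.766, 2.03, 0.294, 0.0589, 1.83 and 9.66 in the same order. Their hepatocytes also differed in Nras, at 1288 CPM in the first cluster and 241 in the second. Over all barcodes of each cluster, the median share of the 5 rule genes was 4.004% in the first and 13.5% in the second. Depth was thus alike but the hepatocyte share was not, and the part of that share in the difference was not tested. The clusters differed by every gene that made them, so their difference is a description. In the 6158 shallow hepatocytes, with a median of 2600 UMIs, Npy was at 5.54, 14.8, 67.8 and 229 CPM from the baseline to the high bin, and most other genes held too few UMIs to order the bins. At that median depth a single Nras UMI lifts a cell out of the baseline bin, so the bins are coarser than in deep cells. The high value rests on 47 Npy UMIs in 47 cells, and their spread over the cells is not given.

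The genes whose log2(CPM + 1) was most like that of each of the 8 were taken over the 9 sums of a mouse and a bin, among 8086 genes. For Dhh these were Anxa4 and Galnt1 (r = 0.992 for both), for Nrk Krt20 (0.989) and Golm1 (0.988), and for Npy Sf3b4 (0.988) and Smad3 (0.984). For Pgf they were Ywhah (0.985) and Arl8a (0.980), for Stc1 Atp6v0a1 (0.985) and Snu13 (0.978), for Ptgs2 Zcchc9 (0.974) and Ftsj3 (0.968), and for Uts2b Tm9sf3 (0.956) and Cep290 (0.955). Inhba was most like Fgl1 (0.980), a liver-derived secreted protein, and Zranb1 (0.970). The 9 sums come from 3 mice and share the bins, so that any gene which follows the dose will score highly, and no test is given.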

How the data were processed

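UMI counts per gene and barcode were deposited by the authors as raw counts, aligned to mm10 with Cell Ranger (version 2.1.1 per the labels, 3.0.2 in the matrix header). Hashtag counts were made with CITE-seq-Count. The count table held 142072118 gene UMIs in 13151 barcodes (median 3908). Per-sample columns used nowhere: 0.

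Hashtags were called with HTODemux (Seurat 5.3.0, quantile 0.99), giving 5482 barcodes with 1 hashtag, 271 doublets, which were removed, and 7386 negatives. No other doublet caller was run. Barcodes needed 500 genes, 1000 UMIs and under 20% mitochondrial UMIs, which left 10056 without hashtag doublets. The gene and hashtag libraries shared 13141 barcodes. Reads of the 2 10x lanes could not be told apart.

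Sums of at least 5 cells per hashtag and bin entered edgeR 4.0.16 (TMM, filterByExpr, quasi-likelihood, Benjamini-Hochberg, threshold 0.05) with the hashtag as a block, giving 9 sums and 3 residual degrees of freedom. Cells are not replicates, and the mice are the replicates of the fit, whichever construct they carried. On simulated data for this comparison (10750 genes) 63.2% of genes changed 2-fold and 91.7% of those changed 4-fold were recovered, and 6 of 10559 unchanged genes were called. DESeq2 1.42.0, R 4.3.3, Python 3.11.15, scipy 1.17.1 and scanpy 1.11.5 were used. Other barcodes were clustered (Leiden, 2000 variable genes, 30 components) without the 8 genes, Nras and mVenus, and clusters were named by marker genes. Partner genes were named if they passed the fit (up to 4 in each direction per list) or were among the 3 of a list with the highest levels, and for each of the 8 genes the 2 most alike genes were named. The 8 genes and all lists were chosen with earlier results of these data known.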

Additional observations from a re-analysis of the deposited data

How the results depend on the processing

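Under all 17 alternatives the number of the 8 genes at least 4-fold higher in the high bin was 5 to 7. The median log2 ratio of high to baseline (3.45) became 4.55 with quartiles of Nras in place of the bins and 2.60 in cells with at least 5% of UMIs from hepatocyte genes, and 3.79 to 4.65 when 1 hashtag was left out, the highest value being without hashtag 2. Single genes took the other sign in 2 cases. Inhba went to 1.66 with no hepatocyte rule, a setting chosen after seeing the data. Ptgs2 went to -0.057 with at least 5% hepatocyte genes, a value set by 0.5 UMI added because the high bin held none. Without hashtag 2, Npy stood at 7.89, Uts2b at 5.32, Stc1 at 5.26, Pgf at 4.04 and Dhh at 2.87.

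The numbers of genes higher and lower (1281 and 1274) became 699 and 679 with DESeq2 and 475 and 590 with at least 5% hepatocyte genes, which leaves fewer cells. With the hashtag-negative cells as a further block, added after seeing the data, they were 1835 and 1946. Without the replicate block they were 1028 and 1029, and without hashtag 3 1297 and 1258. Leaving out hashtag 1 or 2 left no residual degrees of freedom and was not run. The 19 calls among partner genes kept their direction in every alternative that could test them. They held in 154 of 184 tests, and 6 genes (Uts2, Cpe, Pam, Inhbc, Fst and Hpgd) held in all. Without the replicate block 7 of the calls were lost. In the high bin depth limits Inhba, which rests on 9 UMIs, and the spread between cells limits Npy, of which 5 cells hold 77.8% of UMIs. The sources used here pair the hashtags with the constructs in different ways. In the high bin were 23 of 231 deep hepatocytes of hashtag 1, 72 of 1129 of hashtag 2 and 2 of 25 of hashtag 3, and no mouse was assigned to a construct from such values.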
